A study of Mus musculus with 12 samples.

Results

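The cytosolic ribosomal protein genes were followed in the left ventricle of mice after myocardial infarction, with and without a vector for Irx3. The group held 87 of the 56748 genes of the count table. These were all protein-coding genes whose symbol began with Rpl or Rps and a digit, together with Rpsa, Rplp0, Rplp1 and Rplp2, and without the S6 kinases and pseudogenes. By role, 43 encode proteins of the large subunit, 31 proteins of the small subunit and 3 proteins of the stalk of the large subunit. A further 9 are paralogs or retrogenes, among them Rpl3l and Rpl22l1, and the last, Rps19bp1, encodes a protein that binds Rps19 and is not a ribosomal protein itself. The genes Fau and Rack1, which also encode ribosomal proteins, have other symbols and were looked at separately.

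Polyadenylated RNA was sequenced from wild-type C57BL/6J mice, with 4 libraries per group. All mice had received an AAV9 vector, an adeno-associated virus that reaches heart muscle well, through the tail vein. The control group carried the control vector (AAV9-Ctrl) and had sham surgery, the infarcted control group carried AAV9-Ctrl and had ligation of the left anterior descending coronary artery, and the Irx3 group carried AAV9-Irx3 and had the same ligation. Tissue was collected on day 14 after surgery in all 3 groups. Without sham-operated mice carrying AAV9-Irx3, an effect of the vector in uninjured hearts cannot be seen. The sources used here do not state which promoter drove Irx3 or how far from the scar the tissue was taken. The labels do not say whether each library came from 1 mouse, and if not, p-values measure only the spread between these libraries.

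A ribosome is built from ribosomal RNA and one copy of most of these proteins, so cells make the proteins in matched amounts. The small subunit decodes the messenger RNA and the large subunit forms the peptide bond, while the stalk proteins Rplp0, Rplp1 and Rplp2 recruit the elongation factors. Transcripts of these genes are among the most abundant in growing cells. They begin with a tract of pyrimidines (C or T), the 5′ terminal oligopyrimidine (TOP) motif, through which the growth kinase mTOR sets their translation. Striated muscle is known for a change of paralog: Rpl3l takes the place of Rpl3 in adult cardiomyocytes, as the elongation factor Eef1a2 takes the place of Eef1a1.

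In many of these genes a tract of this kind is seen near the annotated start. RefSeq's table of promoters on GRCm38.p6, another build than that of the counts, held 79 windows for 67 of the 87 genes, some with several starts. The windows below belong to Rps27, which rose after infarction, Rpl38 and Rplp2, which were among the largest falls below sham with Irx3 vector, Rps6 and Rpl28 as further members of each subunit, and the paralogs Rpl22l1 and Rpl3l, whose counts moved apart from the rest. Each runs 5′ to 3′ from 35 bases before the annotated start to 20 bases after it, and capitals mark the longest run of C and T.
Rps27: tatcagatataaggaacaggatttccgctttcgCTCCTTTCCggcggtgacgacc
Rpl38: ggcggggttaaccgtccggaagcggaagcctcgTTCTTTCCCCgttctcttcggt
Rplp2: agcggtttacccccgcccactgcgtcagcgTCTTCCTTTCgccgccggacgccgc
Rps6: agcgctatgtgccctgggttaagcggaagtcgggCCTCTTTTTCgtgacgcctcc
Rpl28: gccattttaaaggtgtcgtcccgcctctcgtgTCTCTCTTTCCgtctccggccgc
Rpl22l1: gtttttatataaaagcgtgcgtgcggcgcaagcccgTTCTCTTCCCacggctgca
Rpl3l: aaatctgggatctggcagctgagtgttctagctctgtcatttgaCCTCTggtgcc

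In these windows the run was 9 bases in Rps27, 10 in Rpl38, Rplp2, Rps6 and Rpl22l1, 11 in Rpl28 and 5 in Rpl3l. In Rpl22l1 and Rpl3l the run lies after the annotated start. On GRCm38.p6 the window of Rps27 is chr3:90213629-90213683 on the minus strand, that of Rpl38 chr11:114668545-114668599 on the plus strand, that of Rplp2 chr7:141447616-141447670 on the plus strand and that of Rps6 chr4:86857348-86857402 on the minus strand. The window of Rpl28 is chr7:4792930-4792984 on the plus strand, that of Rpl22l1 chr3:28805473-28805527 on the plus strand and that of Rpl3l chr17:24727791-24727845 on the plus strand. A run of at least 8 pyrimidines on the transcript strand lay in 48.1% of the 79 windows of these genes when cut to the same 55 bases, and in 22.3% of the 32851 windows of all genes. The letters CCGGAAG, on either strand of the full 300 bases, were in 34.2% of the windows of these genes and in 8.86% of all. TATAAA, searched the same way, was in 8.86% and 13.6%. These are matches of letters, not measured sites, and annotated starts can lie some bases away from the start used in the heart.

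The libraries held 13352604 to 19236721 counts. Irx3 lay between 16.8 and 30.5 normalised read counts (CPM, counts scaled to the library size after TMM normalisation) in the 8 libraries with control vector and between 285 and 513 in the 4 with Irx3 vector, as labelled. The labels name the tissue as left ventricle and the cells as cardiomyocytes, but markers of other cells were present and moved with surgery. The summed CPM of 8 fibroblast markers was 634 to 816 in sham hearts, 13036 to 36195 after infarction with control vector and 3765 to 25209 with Irx3 vector. The sum of 9 macrophage markers was 432 to 513, 1212 to 2773 and 779.6 to 1501, and that of 12 cardiomyocyte markers was 110185 to 126852, 29871 to 74412 and 36966 to 65059. Mitochondrially encoded genes took 4.50% to 8.22%, 0.926% to 5.64% and 10.4% to 19.01% of all counts. Base composition moved with the vector too: the log2 difference between genes of 60% and 40% GC was 0.24 to 0.78 in sham hearts, 0.05 to 1.18 after infarction with control vector and -1.30 to -0.95 with Irx3 vector. In whole tissue, fewer cells of a type and less RNA per cell cannot be told apart.

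Ribosomal protein transcripts were a small and unequal part of these hearts' RNA. In sham libraries the 87 genes took 1.16%, 1.36%, 1.27% and 1.18% of all counts. Infarction with control vector gave 1.75%, 1.57%, 1.84% and 2.17%, all above the sham libraries. Irx3 vector gave 1.25%, 1.19%, 1.16% and 1.22%, within the range of the sham libraries for 3 of 4 and just under it for replicate 3. Of the counts of nuclear genes alone the share was 1.27% to 1.43% in sham hearts, 1.66% to 2.19% after infarction with control vector and 1.33% to 1.50% with Irx3 vector, so here too the infarcted control libraries lay above the others. The large subunit genes' part of the sum stayed between 57.5% and 59.6% in the 12 libraries.

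**Figure D1:**
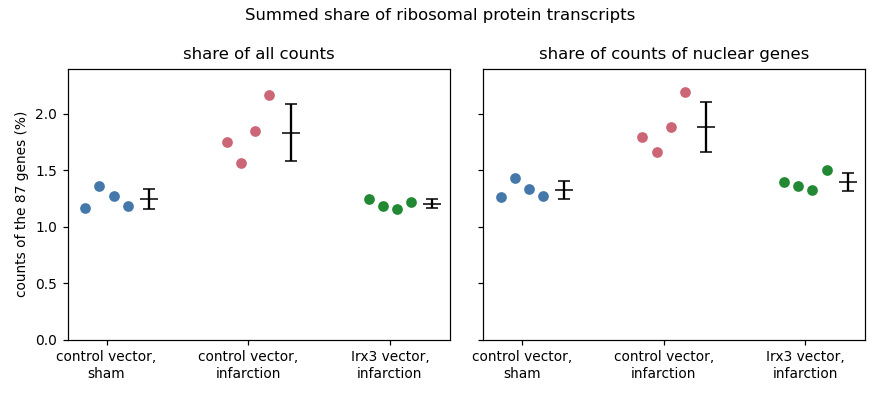
Summed counts of the 87 ribosomal protein genes as a percent of all counts (left) and of the counts of nuclear genes (right), 1 point per library, with the mean ± SD of 4 libraries in black. The 4 libraries of infarction with control vector, 1.57% to 2.17% on the left, lie above all 8 others.

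Per kilobase of coding sequence, mean levels in sham hearts of the genes that passed a filter on low counts ran from 2.76 CPM for Rps10 to 1949 for Rpl41, whose coding sequence of 75 bases is the shortest. Rplp0 (1216) and Rplp1 (1012) followed. All counts of a gene were divided by its coding sequence alone, so the rank of Rpl41 depends on that short length. Before division Rpl41 had 1312 to 2695 counts in the sham libraries and Rplp0 13773 to 21060. The range is wide on this measure, although ribosomes hold most of the proteins in equal number, but both its ends are uncertain. Pseudogenes bear on the low end, since 320 rows of the table are named as pseudogenes of 63 of these genes and hold 112054 reads. Rps10 had 365 counts in all libraries beside 8413 in 4 pseudogene rows, Rpl17 had 5884 beside 16323 and Rpl21 had 3386 beside 5304. Rpl13a, with 1391 counts, and Rpl24, with 55, were also low, and the levels of these genes are uncertain. The filter kept 82 of the 87. The others were Rpl24, the testis paralogs Rpl10l (0 counts) and Rpl39l (35), the retrogene Rps23rg1 (20) and Rpl36al (27), and they enter none of the counts of changes.

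After infarction with control vector, more ribosomal protein transcripts rose than fell, by modest amounts. Of the 82 genes tested, 34 were higher than in sham hearts by edgeR's quasi-likelihood test (Benjamini-Hochberg adjusted p under 0.05 over 15742 genes), where 26.3% of all genes tested were called higher. Only Rpl3l and Rps2 were lower, against 22.4% of all genes. The median log2 fold change was 0.34, beside 0.01 over all genes. Of 45 genes of the large subunit and stalk 20 were higher and 0 lower, and of 31 of the small subunit 14 were higher and 1 was lower. Groups of libraries did not overlap for 31 genes that were higher and 3 that were lower, Rpl3l and Rps2 among them, where 24.5% and 22.8% of all genes did so. The count of 34 depended on which libraries were used: it was 21 when sham replicate 1 was left out, 18 when either replicate 3 or replicate 4 of the infarcted control group was, and up to 37 when another was. Tested against a fold change of 1.2, 15 were higher, and the share of all genes was not taken for that test. With a correction of each library for GC content 49 were higher and 2 lower, where 29.4% and 23.2% of all genes were, and with the GC of the coding sequence 50 and 2, where 29.0% and 23.4% were.

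**Figure D2:**
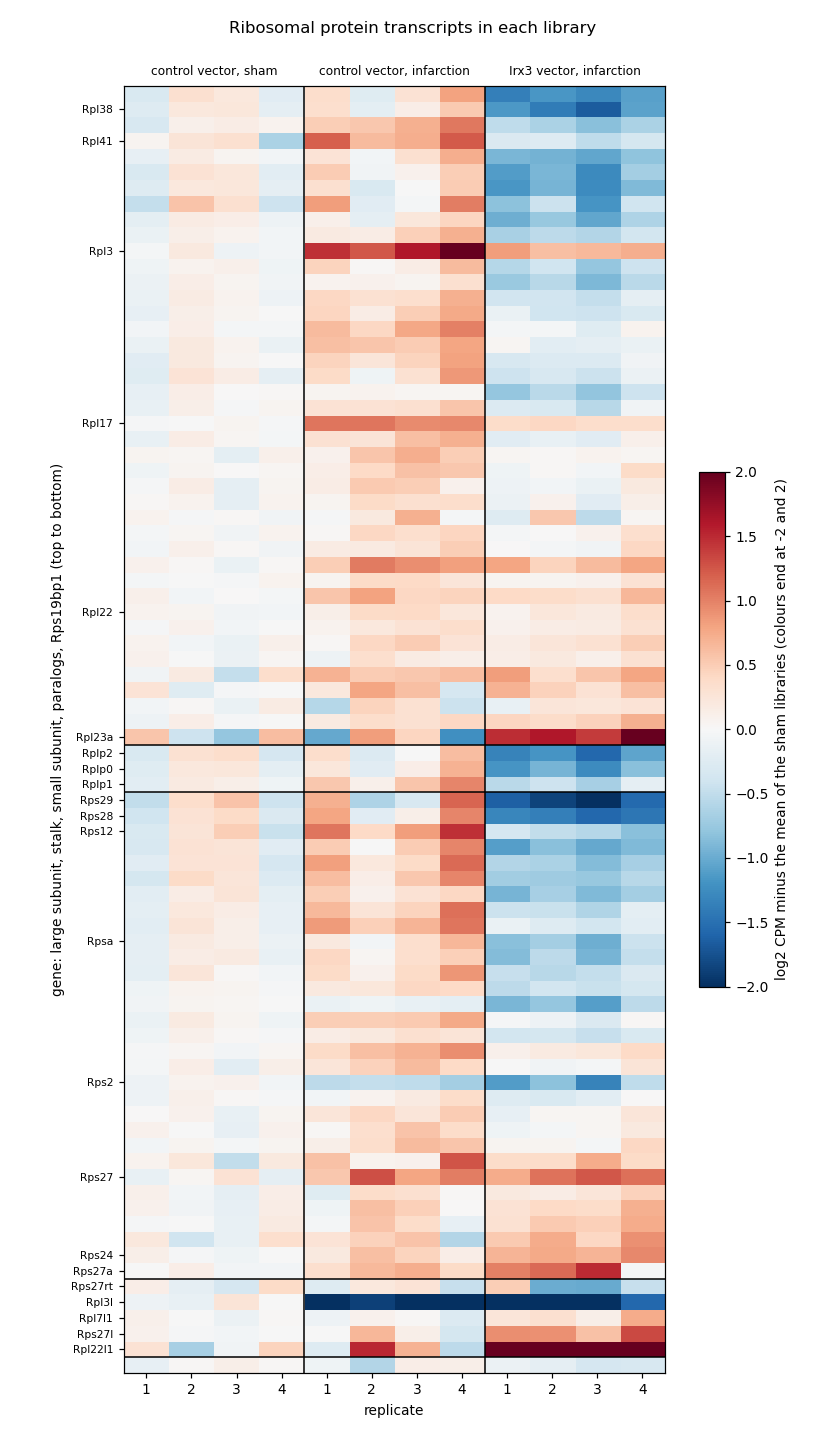
Log2 CPM of the 82 genes tested, each minus its own mean over the 4 sham libraries, for 12 libraries in columns; within each class genes are ordered by their change with Irx3 vector, colours end at -2 and 2, and the genes described library by library are labelled. Of the 82 genes 75 had a fold change above 0 (red) after infarction with control vector and 47 one below 0 (blue) with Irx3 vector, while Rpl3l is blue in both infarcted groups and Rpl22l1 is deep red with Irx3 vector.

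The largest rise was that of Rpl3, a large subunit protein close to the peptidyl transferase centre. Its CPM was 142, 168, 137 and 141 in sham hearts and 405, 349, 445 and 590.4 after infarction (log2 fold change 1.60 ± 0.16, adjusted p = 2.4e-05, a 3.04-fold rise). Here and in all later values the error of a log2 fold change is its standard error, with 4 libraries per group, and p is that of edgeR's test. Every infarcted library lay above every sham library. Rpl17, of the large subunit at the exit of the peptide tunnel, went from 19.3, 19.5, 20.3 and 19.3 to 41.3, 41.04, 37.8 and 38.1 (log2 fold change 1.01 ± 0.09, adjusted p = 1.6e-05), with little spread within either group. Its reads may be shared with its 11 pseudogene rows. Rps12, of the small subunit, stood at 41.6, 61.7, 72.5 and 37.9 and then at 109, 67.8, 91.8 and 141 (log2 fold change 0.94 ± 0.24, adjusted p = 0.0055), and here the groups overlapped. Rps27, a zinc-binding protein of the small subunit, went from 19.2, 21.7, 25.7 and 18.7 to 30.9, 51.96, 36.6 and 43.04 (log2 fold change 0.93 ± 0.17, adjusted p = 0.00074). Rpl41, the smallest protein of the large subunit, went from 148, 169, 177 and 91.2 to 323, 220.5, 235 and 332 (log2 fold change 0.92 ± 0.20, adjusted p = 0.0022). For Rps27 and Rpl41 the groups did not overlap. Rps2, a core protein of the small subunit, was the exception among the standard proteins: its CPM fell from 724, 809, 819 and 748 to 537, 558, 544 and 484 (log2 fold change -0.55 ± 0.18, adjusted p = 0.02), and without sham replicate 3 its adjusted p was 0.052.

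The stalk genes and Rpsa were less clear after infarction. The stalk scaffold Rplp0 was at 967, 1323, 1337 and 1001 CPM in sham hearts and at 1345, 980.5, 1259 and 1859 after infarction (log2 fold change 0.23 ± 0.21, adjusted p = 0.39), and Rplp2 at 187, 285, 294 and 183 and 296, 192, 229.8 and 355 (log2 fold change 0.18 ± 0.22, adjusted p = 0.52). Both groups spread widely and overlapped. Rplp1 passed the test at 0.57 (adjusted p = 0.022), with infarcted libraries at 500.2, 370.4, 504 and 675 against 297, 389, 374 and 325, and lost it in 5 of the 12 fits that left out a library. Rpsa, the laminin receptor of the small subunit, was at 572, 737, 709 and 599.6 and 746, 627, 817 and 1029 (log2 fold change 0.30 ± 0.19, adjusted p = 0.2). The spread had a pattern. Replicates 2 and 3 of the sham group, with GC differences of 0.71 and 0.78, were above replicates 1 and 4, with 0.24 and 0.35, in Rplp0, Rplp2, Rpsa, Rps28 and Rps29. In the infarcted control group replicates 1 and 4, with 0.97 and 1.18, were above replicate 2, with 0.05, in the same genes. Replicate 3, with 0.50, lay between replicates 2 and 1 in these genes except Rpsa, where its 817 was above the 746 of replicate 1. The part of base composition in these levels was not tested.

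Fibroblast, macrophage and cycling-cell markers rose with the same surgery: 8 of 8, 8 of 9 and 7 of 8 were higher after infarction, and the other macrophage marker was lower. Of all genes tested 26.3% were higher and 22.4% lower. All 7 markers of T and NK cells were higher too, at a summed level of 1.81 to 2.76 CPM in sham hearts and 9.16 to 25.0 after infarction, while 10 of 12 cardiomyocyte markers fell. Of the T and NK markers 1 was at 0 in sham hearts, and none of the fibroblast, macrophage, cycling-cell and cardiomyocyte markers was at 0 in any group. Their part in the rise of the ribosomal protein genes was not tested.

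The cardiac paralog Rpl3l went against its partner. Its CPM was 389, 378, 502 and 414 in sham hearts, 74.1, 115, 58.5 and 8.32 after infarction with control vector and 38.9, 91.8, 61.2 and 141 with Irx3 vector. It fell 6.58-fold after infarction (log2 fold change -2.72 ± 0.58, adjusted p = 0.0019) and was 5.06-fold below sham with Irx3 vector (log2 fold change -2.34 ± 0.57, adjusted p = 0.0029), and both infarcted groups lay wholly below sham. Between the infarcted groups no difference was shown (log2 fold change 0.38 ± 0.54, adjusted p = 0.58). Replicate 4 of the infarcted control group, the lowest in Rpl3l and the highest in Rpl3, also had the smallest mitochondrial share, 0.926%.

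As a share of the summed counts of Rpl3l and Rpl3, the paralog held 73.2%, 69.3%, 78.5% and 74.6% in the sham libraries. The share was 15.5%, 24.8%, 11.6% and 1.39% after infarction with control vector and 12.99%, 29.3%, 21.1% and 36.8% with Irx3 vector. Sham hearts thus had mostly Rpl3l and infarcted hearts mostly Rpl3. Per kilobase of coding sequence the mean level of Rpl3l was 345 CPM against 122 for Rpl3 in sham hearts, and 52.4 against 370.0 after infarction with control vector. The log2 ratio of paralog to partner fell by 4.74 from sham to infarction, and the exact permutation test gave p = 0.029, the smallest that 4 against 4 libraries can give, and 0.054 after Benjamini-Hochberg adjustment over 15 ratio tests. The same test gave a difference of 1.57 between the infarcted groups (exact p = 0.17, adjusted p = 0.23). Without replicate 4 of the infarcted control group these differences were -3.82 and 0.65, and over all libraries left out in turn they ranged to -5.28 and 2.12. No ratio test passed after this adjustment.

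For the elongation factors, Eef1a2, the muscle form, held 77.4% to 84.0% of the counts of Eef1a2 and Eef1a1 in sham hearts, 23.1% to 41.4% after infarction with control vector and 30.5% to 53.9% with Irx3 vector. Eef1a1 rose from 912, 1020.1, 824 and 874 to 2694, 2401, 3329.7 and 4103 CPM (log2 fold change 1.79 ± 0.22, adjusted p = 6.5e-05) while Eef1a2 fell from 3118, 4161, 4314 and 3441 to 1904, 1692, 1797 and 1229 (log2 fold change -1.18 ± 0.24, adjusted p = 0.0016). Cardiomyocyte markers, which fell in the same libraries, share this direction with Rpl3l and Eef1a2, and their part was not tested.

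**Figure D3:**
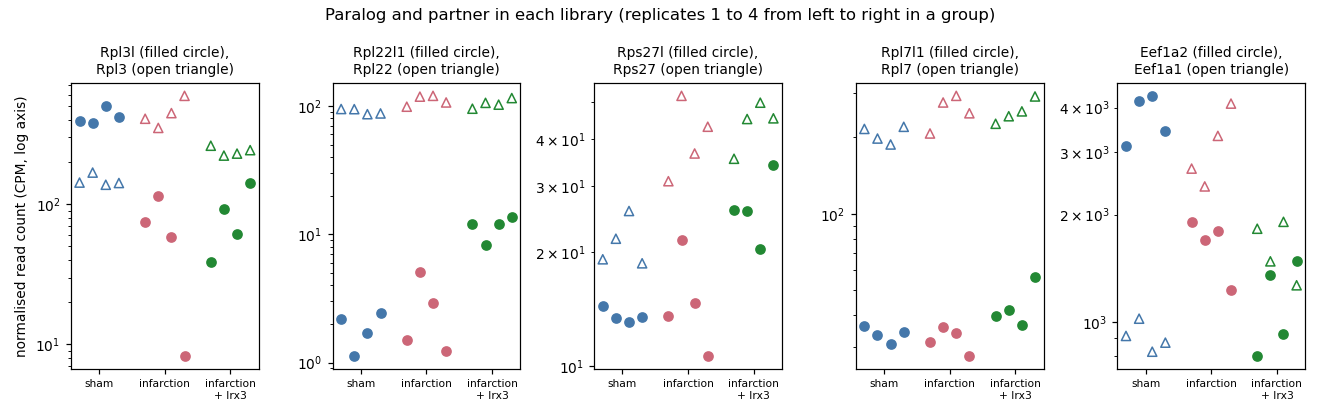
CPM on a log axis of 5 paralogs (filled circles) and their partners (open triangles) in 12 libraries, replicates 1 to 4 from left to right within sham (blue), infarction with control vector (red) and infarction with Irx3 vector (green). Rpl3l and Eef1a2 lie above their partners in all 4 sham libraries and below them in all 4 infarcted control libraries, and Rpl22l1 is highest in the 4 libraries with Irx3 vector.

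With Irx3 vector, most ribosomal protein transcripts were lower than with control vector in infarcted hearts. Of the 82 genes, 50 were lower, where 24.1% of all genes tested were, and 5 were higher, where 25.2% were. The median log2 fold change was -0.60, beside 0.00 over all genes. Both subunits took part: 30 of 45 genes of the large subunit and stalk and 20 of 31 of the small subunit fell, and 1 of each rose (Rpl23a and Rps24). Of the 5 paralogs tested, 3 rose (Rpl22l1, Rps27l and Rpl7l1) and 0 fell, while Rpl3l and the retrogene Rps27rt were not called. Libraries of the groups did not overlap for 43 genes that were lower and 4 that were higher, where 18.9% and 22.1% of all genes did so. The count of falls was 43 to 53 when a library was left out. All of these values share the infarcted control libraries with the comparison against sham.

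The largest fall was that of Rps29, a zinc-binding protein of the small subunit, which was at 221, 87.6, 108 and 300.2 CPM with control vector and at 43.4, 37.4, 29.1 and 45.6 with Irx3 vector (log2 fold change -2.20 ± 0.37, adjusted p = 0.00043). Its infarcted control libraries spread from 87.6 to 300.2, and all lay above those with Irx3 vector. Rps28, which sits near the exit of the messenger RNA, went from 159, 78.7, 99.98 and 181 to 37.2, 35.5, 30.8 and 33.9 (log2 fold change -1.92 ± 0.25, adjusted p = 0.0001), and the Irx3 libraries were close to each other. Rps12 went from 109, 67.8, 91.8 and 141 to 40.8, 36.7, 34.5 and 28.7 (log2 fold change -1.54 ± 0.24, adjusted p = 0.00027). Rpl38, known from mice with altered body patterning, went from 62.5, 43.00, 54.1 and 71.04 to 22.3, 18.7, 15.6 and 23.6 (log2 fold change -1.52 ± 0.18, adjusted p = 6.1e-05). In each of these the groups did not overlap. Against sham, whose libraries were at 41.2, 57.2, 57.9 and 43.6, Rpl38 was also lower (log2 fold change -1.32 ± 0.18, adjusted p = 5.3e-05).

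All 3 stalk genes fell with the vector. Rplp0 went from 1345, 980.5, 1259 and 1859 CPM to 504, 599, 477 and 641 (log2 fold change -1.29 ± 0.22, adjusted p = 0.00042). Rplp1 went to 237, 259, 216 and 302 (log2 fold change -1.01, adjusted p = 0.00077) and Rplp2 to 91.9, 102, 78.1 and 112 (log2 fold change -1.48, adjusted p = 0.0002). Rpsa was at 362, 408, 331 and 485, below each infarcted control library (log2 fold change -1.02, adjusted p = 0.00078). Rpl3 and Rpl17, which had risen after infarction, were lower with the vector but above sham. Rpl3 stood at 260.5, 222, 229 and 242 (log2 fold change -0.91 ± 0.16, adjusted p = 0.00058; over sham, log2 fold change 0.70, adjusted p = 0.0021), and Rpl17 at 25.3, 26.1, 24.9 and 25.1 (log2 fold change -0.64 ± 0.09, adjusted p = 0.00013; over sham, log2 fold change 0.37, adjusted p = 0.0029). Rpl41 stood at 116, 119, 99.5 and 111 (log2 fold change -1.32 ± 0.20, adjusted p = 0.00024). After correction for GC the change of Rplp1 was -0.41 (adjusted p = 0.052) and the excess of Rpl17 over sham was 0.18 (adjusted p = 0.1).

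Other features of the libraries moved with the vector as well. Of 9 macrophage markers 5 were lower than with control vector and 0 higher, of 8 cycling-cell markers 4 were lower and 1 higher, and of 8 fibroblast markers 1 was lower. Of all genes tested 24.1% were lower and 25.2% higher. Marker calls were counted without the GC correction only. Of 7 endothelial markers 4 were lower and 3 higher, and their sum was 986 to 1111 CPM with Irx3 vector, below the 1114 to 1538 with control vector. The mitochondrial share was higher in all 4 libraries with Irx3 vector than in all 8 others. Their part in the fall of the ribosomal protein genes was not tested.

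A few genes went the other way. Rpl22l1, the paralog that can take the place of Rpl22, was at 2.18, 1.13, 1.71 and 2.43 CPM in sham hearts, 1.49, 5.06, 2.90 and 1.24 after infarction with control vector and 11.99, 8.19, 11.98 and 13.6 with Irx3 vector. The rise with the vector was 4.30-fold (log2 fold change 2.10 ± 0.38, adjusted p = 0.00072), from 24 to 83 counts per library to 171 to 243, and the groups did not overlap. Its partner Rpl22 was at 98.8, 118, 120.1 and 107 and 95.3, 106, 103 and 115 (log2 fold change -0.08 ± 0.10, adjusted p = 0.53), so Rpl22l1 rose from 1.15% to 4.10% of the pair to 7.18% to 11.2%. The ratio differed by 1.94 on the log2 scale (exact p = 0.029, adjusted p = 0.054). Rpl22l1 has the lowest GC content in its coding sequence among these genes, 39.9%, and after correction for GC its rise was 1.09 (adjusted p = 0.016). With the GC of the coding sequence it was 0.77 (adjusted p = 0.037). The call was lost when GC correction was joined with a replicate block (1.10, adjusted p = 0.0501) or with leaving out replicate 4 of both infarcted groups (0.85, adjusted p = 0.0504).

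Rpl23a, of the large subunit, was at 13.7, 50.1, 37.8 and 11.9 CPM with control vector and 77.9, 85.3, 73.6 and 120.4 with Irx3 vector (log2 fold change 1.65 ± 0.44, adjusted p = 0.0071), and its rise was 1.65 after correction for GC. It varied within groups, with sham libraries at 41.2, 20.97, 16.4 and 43.1, and without replicate 4 of both infarcted groups its adjusted p was 0.066. It also has 14 pseudogene rows. Rps27l, a p53 target and paralog of Rps27, went from 13.5, 21.5, 14.7 and 10.6 to 25.9, 25.7, 20.4 and 34.1 (log2 fold change 0.81 ± 0.20, adjusted p = 0.0048), and after correction its change was 0.29 (adjusted p = 0.19). Rps24, of the small subunit, went from 113, 148, 134 and 107 to 158, 167, 157 and 191 (log2 fold change 0.42 ± 0.13, adjusted p = 0.013), and after correction the change was 0.02 (adjusted p = 0.89), or -0.21 with the GC of the coding sequence. Rpl7l1, a paralog of Rpl7, went from 31.3, 35.8, 34.1 and 27.7 to 39.7, 41.8, 36.7 and 56.4 (log2 fold change 0.44 ± 0.14, adjusted p = 0.019), and without Irx3 replicate 4 its adjusted p was 0.061. Of the 5 rises, those of Rpl22l1, Rpl23a and Rpl7l1 passed with the GC correction, and those of Rpl22l1 and Rpl23a with the GC of the coding sequence.

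Base composition moved with the vector, and the ribosomal protein genes spread over it. Their coding sequences hold 39.9% to 61.6% GC (median 52.6%) over 75 to 1257 bases (median 453). Across the 82 genes the log2 fold change with Irx3 vector went with coding GC at a Spearman correlation of -0.54, beside -0.62 over 13426 genes tested. For infarction against sham it was -0.05 and 0.04. Genes of 1 library share its composition, so these are descriptions. Among the 41 genes with the most GC 33 fell and 0 rose with the vector, with a median of -0.91, and among the 41 with the least 17 fell and 5 rose, with a median of -0.20.

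The fall remained in part after a correction of each library for GC content, which was chosen with earlier results of these data known. With it the median was -0.43, beside 0.02 over all genes. Of the 50 falls 43 were kept and 5 other genes were added, where 12.5% of all genes tested were then called lower. Of the 5 rises 3 were kept and 2 other genes, Rpl14 and Rpl35, were added, where 13.7% were called higher. Rpl13, Rpl19, Rpl29, Rplp1, Rps6 and Rps19 were among those that lost the call. With the GC of the coding sequence in place of that of the transcript, 46 of the 50 falls were kept and 7 other genes were added. This gave 53 lower genes, where 15.2% of all genes were called lower, and a median of -0.50. Of the 5 rises 2 were then kept and 1 other gene was added, where 16.8% were called higher. With transcript GC the changes were -1.89 for Rps29, -1.58 for Rps28, -1.37 for Rps12 and -1.15 for Rpl38. The corrections differ for single genes: Rps20 was at -0.44 uncorrected, -1.47 with transcript GC and -0.74 with coding GC.

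**Figure D4:**
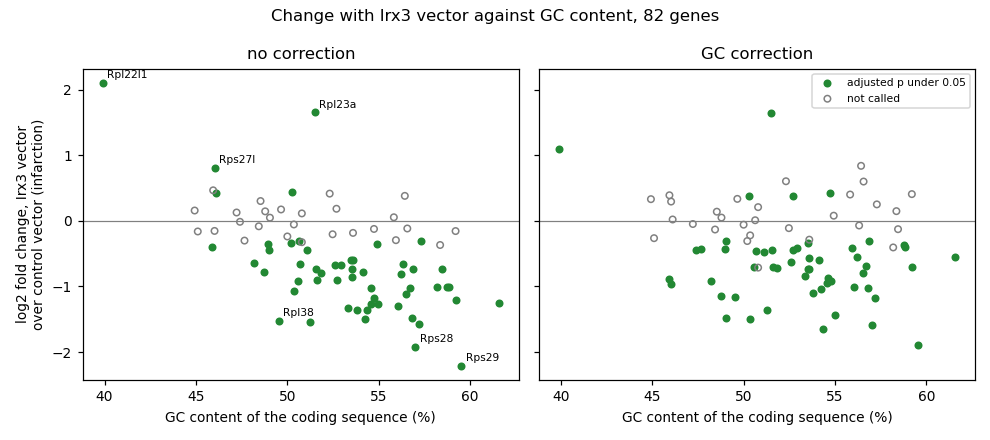
Log2 fold change of Irx3 over control vector in infarcted hearts against the GC content of the coding sequence for 82 genes, without (left) and with (right) the correction for GC; filled points passed an adjusted p of 0.05. On the left the points fall with GC, and on the right 48 of the 82 are still filled below 0.

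Against sham, Irx3 vector with infarction gave falls and rises side by side. Of the 82 genes 30 were lower, where 27.7% of all genes were, and 17 were higher, where 35.2% were, with a median of -0.16 beside 0.12 over all genes. Libraries did not overlap for 29 genes that were lower and 21 that were higher, where 27.6% and 33.2% of all genes did so. This balance moved with the correction: with that for GC 22 were lower and 22 higher, where 21.9% and 31.6% of all genes were. Of the 30 falls 17 were kept and of the 17 rises 16, and the median was -0.016. With the GC of the coding sequence 24 were lower and 15 higher, where 23.8% and 32.7% of all genes were. With GC and length 16 were lower and 28 higher, where 22.5% and 32.2% of all genes were. Among the 41 genes with the most GC 25 fell and 2 rose, and among the 41 with the least 5 fell and 15 rose. The uncorrected change against sham went with coding GC over all genes too, at a Spearman correlation of -0.41 over 13426 genes and -0.63 over the 82. Calls among other genes of like GC were not counted. The largest rises over sham, besides Rpl22l1 (log2 fold change 2.62, adjusted p = 0.00011) and Rpl23a (log2 fold change 1.55, adjusted p = 0.0074), were those of Rps27 (log2 fold change 1.04, adjusted p = 0.00018), Rps27a (log2 fold change 1.00, adjusted p = 0.0024) and Rps27l (log2 fold change 0.96, adjusted p = 0.0011). Rps27a, which encodes a fusion of ubiquitin and a small subunit protein, was at 63.4, 69.3, 88.9 and 31.2 CPM against 31.4, 34.7, 30.4 and 30.5, so replicate 4 lay within the sham range. With the GC of the coding sequence its rise was 0.40 (adjusted p = 0.17) and that of Rps27l 0.37 (adjusted p = 0.056). Rps27 was at 35.4, 45.1, 49.8 and 45.3, near its infarcted control libraries. The largest falls were those of Rpl3l, Rps29 (log2 fold change -1.86, adjusted p = 0.00071), Rps28 (log2 fold change -1.46, adjusted p = 0.00027), Rpl38 and Rplp2 (log2 fold change -1.30, adjusted p = 0.00023). With GC and length correction the fall of Rps28 was -0.67 (adjusted p = 0.059).

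Other pairs of paralog and partner moved less. Rps27l held 42.9%, 38.1%, 33.7% and 41.9% of its pair with Rps27 in sham hearts, 30.5%, 29.3%, 28.7% and 19.8% after infarction with control vector and 42.3%, 36.3%, 29.1% and 42.9% with Irx3 vector. Rpl7l1 held 14.4%, 14.5%, 14.1% and 13.4% of its pair with Rpl7, then 13.1%, 11.5%, 10.5% and 10.01% and 14.9%, 14.7%, 12.6% and 16.3%. For both the infarcted control libraries lay below sham (exact p = 0.029 and adjusted p = 0.054 for each ratio). Rpl39 rose after infarction (log2 fold change 0.83, adjusted p = 0.00025), and Rpl36a too (log2 fold change 0.47, adjusted p = 0.0094), with an adjusted p of 0.063 for Rpl36a when replicate 4 of the infarcted control group was left out, while their paralogs Rpl39l and Rpl36al were too low to test. Rps27rt is a retrotransposed copy of Rps27 whose reads could be split with it, at 24.7, 19.7, 17.8 and 29.3 CPM in sham hearts and 31.5, 11.3, 11.2 and 16.3 with Irx3 vector.

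The mitochondrial ribosomal protein genes, which build a separate ribosome inside the organelle, are set beside the cytosolic ones here without a test between the lists. Of 77 tested, 0 were higher and 52 lower after infarction, where 26.3% and 22.4% of all genes were, with a median of -0.71. With Irx3 vector 16 were higher and 7 lower, where 25.2% and 24.1% were, with a median of 0.12. With the GC correction these were 12 and 5, where 13.7% and 12.5% of all genes were called. With the GC of the coding sequence they were 14 and 0, where 16.8% and 15.2% were. Mrpl38, of the large mitochondrial subunit, changed by -0.89 (adjusted p = 0.00062) after infarction and Mrpl33 by 1.65 (adjusted p = 0.00012) with the vector. Proteasome subunits, another large complex, had 3 of 38 higher and 8 lower after infarction, the rises being Psmb8, Psmb9 and Psmb10 of the immunoproteasome. With the vector 8 were higher and 10 lower, where 25.2% and 24.1% of all genes were, and with the GC correction 0 were higher and 7 lower.

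**Figure D5:**
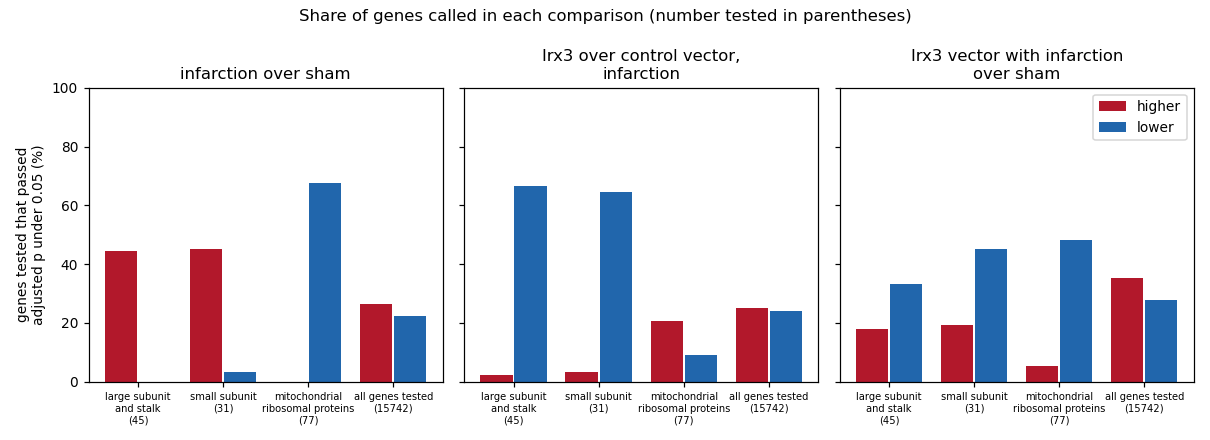
Percent of genes tested that were higher (red) or lower (blue) at an adjusted p under 0.05 in the 3 comparisons, for cytosolic large subunit genes with the stalk, small subunit genes, mitochondrial ribosomal protein genes and all genes tested, whose number is given under each name. In the first panel the calls of the cytosolic genes are nearly all rises and those of the mitochondrial genes are all falls, and in the second panel the calls of the cytosolic genes are nearly all falls.

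Of the other genes of translation, some moved with the ribosomal proteins. Fau, which encodes a small subunit protein fused to a ubiquitin-like one, rose after infarction (log2 fold change 0.86, adjusted p = 0.00078) and fell with the vector (log2 fold change -1.22, adjusted p = 9.7e-05). With the GC correction the fall of Fau was -0.52 (adjusted p = 0.0027). Rack1, a scaffold on the small subunit, fell with the vector (log2 fold change -1.40, adjusted p = 0.00016). In the list of 22 other TOP mRNAs, 3 were higher and 3 lower after infarction, where 26.3% and 22.4% of all genes were. With the vector 5 were higher and 7 lower, where 25.2% and 24.1% were. With the GC correction 4 were higher and 8 lower with the vector, where 13.7% and 12.5% of all genes were. With the GC of the coding sequence 1 was higher and 11 were lower, where 16.8% and 15.2% of all genes were. The list's median log2 fold change with the vector was 0.08 uncorrected, -0.26 with the GC correction and -0.38 with coding GC. Pabpc1, the poly(A)-binding protein, rose after infarction (log2 fold change 1.27, adjusted p = 0.0004), as did Gas5, a noncoding host of small nucleolar RNAs (log2 fold change 0.76, adjusted p = 0.0011). Of 10 elongation factor genes, 1 was higher and 4 lower after infarction, and 0 were higher and 5 lower with the vector, among them Eef2, which moves the ribosome along (log2 fold change -1.33, adjusted p = 0.00043), and its kinase Eef2k (log2 fold change -0.84, adjusted p = 0.00013). With the GC correction these were -0.74 and -0.45, and both passed.

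The next lists are set beside all genes tested, of which 26.3% were higher and 22.4% lower after infarction. With the vector 25.2% of all genes were higher and 24.1% lower, and with the GC correction 13.7% and 12.5%. No list was tested against these shares. Genes of ribosome assembly were mostly not called after infarction. Of 47 biogenesis genes 1 was higher and 7 were lower, and Polr1a, the largest subunit of RNA polymerase I, fell (log2 fold change -0.81, adjusted p = 0.00011). With the vector 18 were higher and 11 lower, with Nop58, of the box C/D particle, at 1.48 (adjusted p = 0.00027) and Polr1c at -1.21 (adjusted p = 0.00018). With the GC correction 8 were higher and 3 lower, and Nop58 was at 0.72 (adjusted p = 0.007). With the GC of the coding sequence Nop58 was at 0.15 (adjusted p = 0.4). Of 28 initiation factor genes 2 were higher and 9 lower after infarction, and 10 higher and 9 lower with the vector (7 and 6 with the GC correction). Of 21 growth regulators 4 were higher and 10 lower after infarction, and 5 higher and 13 lower with the vector (2 and 7 with the GC correction). Among them, Ddit4, a brake on mTOR, changed by -3.49 (adjusted p = 1.3e-06) with the vector and Eif4ebp1, a repressor of initiation under mTOR, by -1.45 (adjusted p = 7.2e-05). Of 10 p53 targets linked to ribosomal stress 4 were higher and 2 lower after infarction, and 2 higher and 4 lower with the vector, with Cdkn1a at -2.01 (adjusted p = 1.6e-05) and Mdm2 at 0.58 (adjusted p = 0.00039). With the GC correction 0 were higher and 2 lower, and Mdm2 was at 0.20 (adjusted p = 0.088). Of 9 genes of ribosome recycling and quality control 0 were higher and 2 lower after infarction, and 6 higher and 1 lower with the vector, led by Abce1 (log2 fold change 1.30, adjusted p = 8.7e-05). With the GC correction 2 were higher and 2 lower, and Abce1 was at 0.18 (adjusted p = 0.19).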

How the data were processed

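The deposited table held raw read counts per gene for 12 libraries of polyadenylated RNA, as seen from integer values and unequal library totals. Per the submitters' processing notes, reads were cleaned with fastp and the genome was GRCm39 (mm39). Neither the aligner nor the counter, its annotation and its strand setting is given in the sources used here, so how reads of pseudogenes and overlapping genes were assigned is unknown. Libraries held 13352604 to 19236721 counts.

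Genes were filtered with filterByExpr, which kept 15742, and all 12 libraries were fitted together with edgeR 4.0.16 (TMM factors, robust quasi-likelihood test, 9 residual degrees of freedom, R 4.3.3), with Benjamini-Hochberg adjustment over all genes tested. The fit was tested on simulated counts for infarction against sham only. Of genes changed 4-fold 82.8% were called, of those changed 2-fold 55.1% and of unchanged genes 0.033%. The simulated libraries did not differ in base composition as the real ones did, and few genes were changed. Ratios of paralog to partner, with 1 CPM added to each, were compared by 2-sided exact permutation tests. The GC correction fitted a spline with 6 degrees of freedom per library. Coding GC and length came from GENCODE on GRCm38, matched by symbol (86 of the 87 genes), and promoters from RefSeq on GRCm38.p6. Levels in every library are given for paralogs and partners, the stalk genes, Rpsa and the 5 called genes with the largest change per direction and comparison. From other lists up to 3 called genes with the smallest p per comparison are named. Values of a few genes are not reported here. The genes, lists and tests were chosen with earlier results of these data known. Alternatives were other factors, filters, DESeq2 1.42.0, GC corrections, a replicate block and leaving out each library.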

Additional observations from a re-analysis of the deposited data

Results flagged for a closer look

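In 99 groups of 4 libraries (a gene's CPM or a pair's log2 ratio in 1 group), 4 held a library far from the others by Dixon's test, and chance alone flags about 1 group in 20. Rpl3 was at 167.7 CPM in sham replicate 2, where the other sham libraries were at 137.3 to 142.3. Rpl17 was at 20.3 CPM in sham replicate 3, where the others were at 19.3 to 19.5. The log2 ratio of Rps27l to Rps27 was -1.92 in replicate 4 of infarction with control vector, where the others were at -1.26 to -1.13. The log2 ratio of Rpl22l1 to Rpl22 was -3.54 in Irx3 replicate 2, where the others were at -3.00 to -2.89.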

How the results depend on the processing

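Across 29 settings, 26 of them planned, the 81 single-gene results had 2349 alternative values. Of these 120 lost the call, 55 gained it and 9 changed sign with a call in the main fit or the alternative. The other 2165 were counted as the same. These include changes of sign where neither fit made a call, as for Rpl23a after infarction (-0.59 to 0.11 with a library left out). The cause of these changes was not tested. Shares of all genes were taken for the main fit and for the corrections by GC or by GC and length. They were not taken for the other settings. After infarction the count of higher genes was 64 with GC and length correction, where 30.1% of all genes were higher. It was 15 against a fold change of 1.2 and 18 to 37 with a library left out. The count of lower genes was 1 against that fold change, 1 with a replicate block and 1 to 2 with a library left out. The median was 0.58 with GC and length correction. For Irx3 against control vector the count of higher genes was 3 without a filter on low counts, 3 against the fold change of 1.2, 3 with coding GC, 3 without replicate 4 of both infarcted groups, and 2 when this was combined with GC correction. The median was -0.43 with GC correction, and -0.44 with GC and length correction or without those replicates and with GC correction. Against sham, Irx3 vector gave 28 higher and 16 lower genes with GC and length correction, where 32.2% and 22.5% of all genes were. The median was -0.016 with GC correction and 0.12 with length added. Rps24 with Irx3 vector was at -0.045 with GC and length correction, -0.21 with coding GC and -0.059 without replicate 4 of both groups and with GC correction. Against sham, Rpl39 was at -0.038 with coding GC, and Rplp1 at 0.15 with GC correction, 0.44 with length added, 0.044 with coding GC and 0.054 without those replicates and with GC correction. The summed share was 1.14% in sham and 1.14% with Irx3 vector without the most abundant gene, and 1.40% with Irx3 vector over nuclear genes.

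Libraries with the same replicate number did not deviate together (correlations of -0.42 to 0.097, 0 of 12 pairs over 0.1), so no pairing by number was seen. Deviations from the mean of 4 libraries per group cannot settle whether the numbers mark a shared batch. With the replicate block 26 genes were higher and 1 lower after infarction, 4 higher and 44 lower with Irx3 vector, and 13 higher and 28 lower with Irx3 vector against sham. With the replicate block and GC correction 2 genes were higher with Irx3 vector, and the medians were -0.43 with Irx3 vector and -0.017 against sham, with Rplp1 at 0.14. The coding GC correction, the pseudogene reads added to their gene, and GC correction without replicate 4 of both infarcted groups were chosen after seeing the data.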
